A study of Mus musculus with 8 samples.

Results

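The genes described here make up the integrated stress response, and they were chosen by name: 43 mouse gene symbols covering its transcription factors, the amino acid synthesis and one-carbon enzymes, the amino acid transporters, the tRNA synthetases and the feedback and stress outputs. Of these, 40 symbols matched a row among the 32334 genes listed, and Atf4, Nars and Tars were not analysed here. The rule itself uses names and no measured value, but the names were chosen with earlier results of these data known. A gene was tested where 2 or more libraries listed it at 1 or above, which all 40 genes met, and all 40 would have met it through the WT libraries alone. They stand among 12717 genes tested.

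The study asked how the loss of H3K4 methylation by MLL3 and MLL4 affects pluripotent cells and their germline competence. Bulk polyA RNA-seq was made from 2 genotypes at 2 stages, with 2 libraries in each of the 4 groups. WT was the mouse R1 embryonic stem cell (ESC) line, and dCD was a line derived from R1 in which MLL3 and MLL4 are both present as catalytically dead proteins. Both lines were first adapted to 2i medium with LIF, the MEK inhibitor PD0325901 (0.4 µM) and the GSK3β inhibitor CHIR99021 (3 µM). Epiblast-like cells (EpiLC) were then made with activin A (20 ng/ml), bFGF (12 ng/ml) and KSR for 2 days, and epiblast stem cells (EpiSC) by passaging with the same activin A and bFGF doses, without KSR, for at least 8 days. As dCD was a single line, its genotype and any other property of that line cannot be told apart. The labels do not say whether the 2 libraries of a group came from separate cultures, so the p-values measure the spread between these libraries.

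The integrated stress response is a switch in translation. Kinases that sense amino acid shortage (GCN2), misfolded protein in the endoplasmic reticulum (PERK), viral RNA (PKR) or low haem (HRI) phosphorylate the initiation factor eIF2, most translation is lowered, and the mRNA of the transcription factor ATF4 is translated better. ATF4, which pairs with C/EBP family proteins, then raises genes for amino acid synthesis, amino acid import and tRNA charging, and genes that feed back on the response. ATF4 is controlled largely at translation, whereas the values here are mRNA levels.

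ATF4 and C/EBP proteins bind a composite DNA element, and its letters TGATGNAA were searched on both strands of the RefSeq promoter windows (GRCm38.p6), which run from 250 bases before to 50 bases after a gene's start. A window was found for 33 of the 40 genes, and 13 of them (39.4%) held the letters, whereas 1219 of all 27025 genes with a window did (4.51%). The genes were chosen by name for a response that runs through ATF4, so these shares are no result of the RNA data. These 13 were Atf3, Nupr1, Asns, Pycr1, Pck2, Slc7a11, Gars, Aars, Yars, Trib3, Chac1, Vldlr and Herpud1. With a window, 11 of the 25 genes that fell in dCD EpiSC held the letters, as did 2 of the 8 others, Slc7a11 and Vldlr. A link between the letters and the differences described further on was not tested. The sequences below are those of the holders picked for the largest fold changes among genes that passed at a stage. The capitals mark the match, which reads as its reverse complement in every stretch but that of Pycr1, and each stretch is written on the strand of its gene.
Chac1 (chr2:119351013-119351092, plus strand): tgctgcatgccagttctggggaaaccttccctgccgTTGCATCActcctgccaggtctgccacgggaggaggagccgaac
Pck2 (chr14:55540127-55540206, plus strand): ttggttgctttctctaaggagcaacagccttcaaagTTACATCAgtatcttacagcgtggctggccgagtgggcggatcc
Atf3 (chr1:191183400-191183479, minus strand): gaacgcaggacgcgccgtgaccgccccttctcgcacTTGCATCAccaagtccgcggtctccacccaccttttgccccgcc
Pycr1 (chr11:120643808-120643887, minus strand): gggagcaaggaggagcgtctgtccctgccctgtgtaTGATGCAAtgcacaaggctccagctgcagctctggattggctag
Nupr1 (chr7:126625562-126625591, minus strand): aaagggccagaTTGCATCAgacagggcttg
Trib3 (chr2:152344028-152344057, minus strand): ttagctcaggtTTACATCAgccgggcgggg
The match lay 193 bases before the start of Chac1, 103 before those of Pck2 and Pycr1 and 110 before those of Atf3 and Nupr1. These starts are those of the RefSeq windows. For Atf3 and Nupr1 the window lies inside the annotated gene, whose upstream end is at chr1:191218039 and chr7:126630861. The Nupr1 stretch overlaps 2 annotated exons. In Trib3 the match lay just after the start. A match in letters is a description and shows neither binding nor control.

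The deposited values are TPM, the share of a transcript among all transcripts of a library corrected for its length, multiplied by a size factor in each library, so they are comparable within a stage. The sum of a library lay between 813537 and 1033290, and 40.6% to 43.4% of the listed genes were at 0. The files hold no read counts, so the depth behind a value is unknown. Markers of the epiblast were high in sum in all 8 libraries, at 1640 to 2620 over 6 genes, most of it Pou5f1 and Dnmt3b. Of the 6 genes, 1 rose and 0 fell in dCD at each stage. Markers of other states also differed between the genotypes and are given after the results. Fold changes below are on the log2(value + 1) scale, with the standard error (SE) and the Benjamini-Hochberg adjusted p of limma over all genes tested, and a gene is said to have risen or fallen where the adjusted p was below 0.05.

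In dCD EpiSC the integrated stress response genes were broadly lower than in WT EpiSC. Of the 40 genes 30 fell and 0 rose in the limma test (14.5% of all genes passed), where 6.91% of all genes tested fell and 7.57% rose. At an unadjusted p below 0.05 the counts were 33 lower and 0 higher. The share of all genes at that unadjusted cutoff is not given, here or for the unadjusted counts below. The median log2 fold change was -0.79, against -0.009 over all genes tested, which corresponds to 0.577 of the WT level. In 38 of the 40 genes both dCD EpiSC libraries lay below both WT EpiSC libraries, which was so for 36.5% of all genes tested, and in the remaining pair, Ppp1r15a and Vldlr, both lay above (35.0% of all genes). In dCD EpiLC the picture was another one: 4 genes rose and 1 fell (10.1% of all genes passed), where 7.56% of all genes rose and 2.57% fell, and the median log2 fold change was 0.11 against 0.027. There 18 genes had both dCD libraries above both WT libraries (26.8% of all genes), 9 had them below (17.7%) and in 13 the genotypes overlapped. These 40 genes are not independent of each other: in the WT EpiSC, replicate 2 was higher than replicate 1 for 37 of the 40 (92.5%, against 50.3% of all genes), and in dCD EpiSC it was higher for 9 (22.5%, against 52.6%).

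The count in EpiSC depended on single libraries. It was 10 without WT EpiSC replicate 2, 12 without dCD EpiSC replicate 2 and 22 without either of the other EpiSC libraries, where 1.51%, 2.26%, 2.51% and 2.82% of all genes fell. In each of these fits 38 of the 40 genes had a fold change below 0. The counts of 4 higher and 1 lower in EpiLC also changed without single libraries, as did the share of all genes that passed. No EpiLC call held in all of these fits, and the EpiLC median lay there between 0.08 and 0.13.

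**Figure D1:**
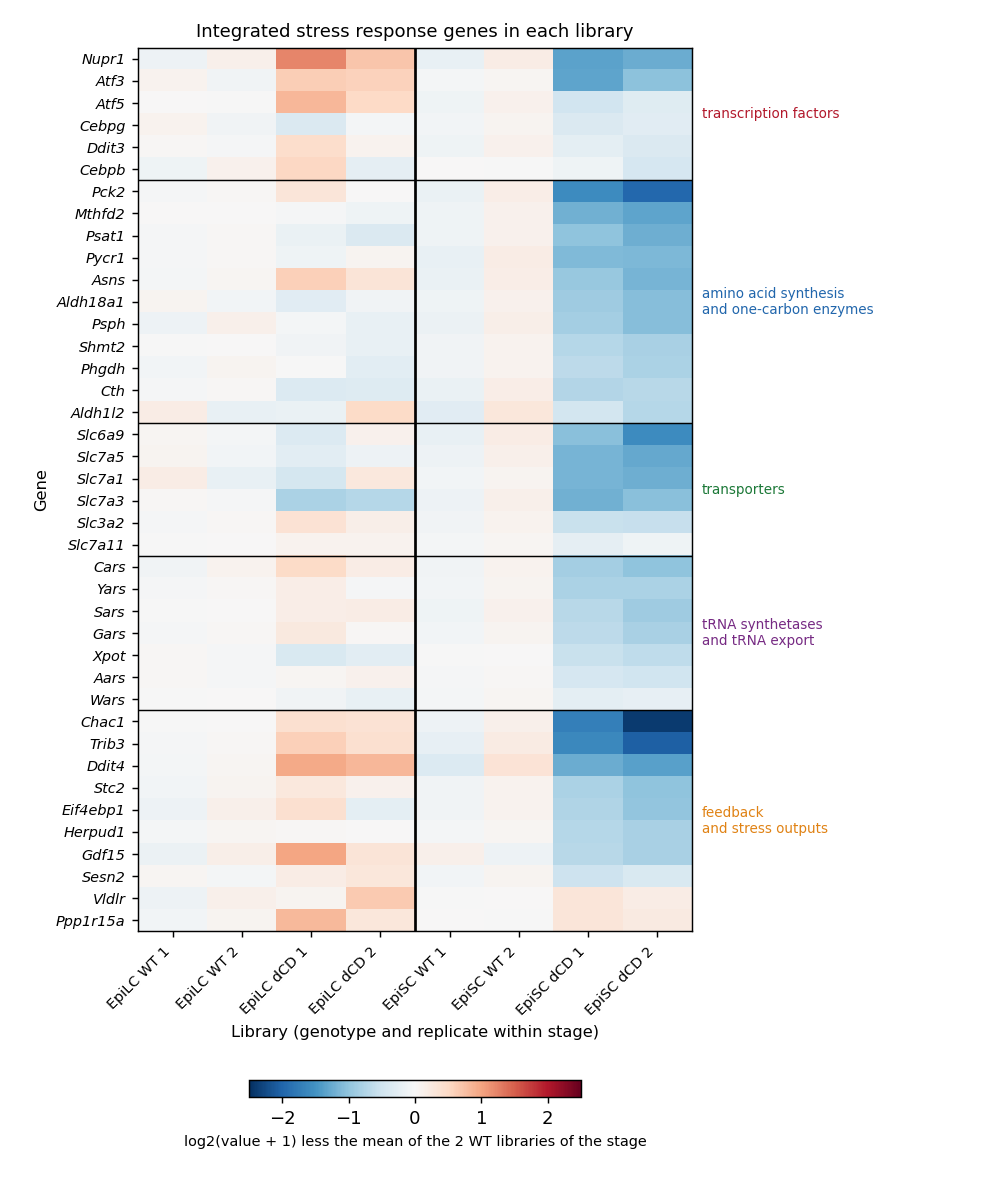
Each row is 1 of the 40 genes, grouped by role, and each column 1 library. The colour gives log2(value + 1) less the mean of the 2 WT libraries of the same stage, with blue below WT and red above it, and nearly all rows are blue in both dCD EpiSC columns while the dCD EpiLC columns hold both colours.

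Among the transcription factors Nupr1 and Atf3 fell in dCD EpiSC. Nupr1, a small chromatin protein induced by stress, was measured at 5.05 and 6.73 in WT EpiSC and at 1.70 and 1.91 in dCD EpiSC (log2 fold change -1.29 ± 0.21, SE, adjusted p = 0.00988). Atf3, a bZIP factor induced by ATF4, had values of 21.0 and 22.8 in WT against 8.22 and 10.3 in dCD (-1.16 ± 0.14, adjusted p = 0.00317). The dCD means were 0.306 and 0.424 of the WT means, whereas in EpiLC both genes rose in dCD. In EpiLC Nupr1 was at 8.83 and 10.8 in WT and at 24.2 and 16.5 in dCD (0.96 ± 0.21, adjusted p = 0.0351). Atf3 went there from 5.93 and 5.11 to 8.96 and 8.75 (0.60 ± 0.14, adjusted p = 0.0413).

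Atf5, another factor whose mRNA is translated better when eIF2 is phosphorylated, also rose in dCD EpiLC, from 13.3 and 13.2 to 24.3 and 19.0 (0.66 ± 0.15, adjusted p = 0.0363). In EpiSC it had values of 41.3 and 48.7 in WT against 31.7 and 36.2 in dCD, and the difference did not pass (-0.39 ± 0.15, adjusted p = 0.134). Ddit3 encodes CHOP, the factor tied to cell death under prolonged stress. Its values were 12.9 and 12.4 in WT EpiLC, 17.4 and 13.5 in dCD EpiLC, 22.1 and 25.5 in WT EpiSC and 19.9 and 18.2 in dCD EpiSC. The genotypes did not overlap at either stage, but neither difference passed (0.26 ± 0.15, adjusted p = 0.347, and -0.30 ± 0.15, adjusted p = 0.23). The C/EBP factors Cebpb and Cebpg, partners of ATF4, lay between 5.56 and 20.6 in all libraries and passed at neither stage. Thus 2 of the 6 transcription factors fell in EpiSC (median -0.36) and 3 rose in EpiLC (median 0.43).

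The enzymes of amino acid synthesis and one-carbon metabolism fell in dCD EpiSC in 10 of 11 cases, with a median log2 fold change of -0.97, and 0 of 11 passed in EpiLC (limma, median -0.12, with 1 higher and 1 lower at an unadjusted p below 0.05). Pck2, which makes phosphoenolpyruvate in mitochondria, showed the largest difference, with 72.0 and 92.0 in WT EpiSC and 26.6 and 20.1 in dCD EpiSC (-1.77 ± 0.18, adjusted p = 0.00182). In EpiLC its values were 47.3 and 49.1 in WT against 59.6 and 48.3 in dCD, and the genotypes overlapped.

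Serine is made from a glycolytic intermediate by Phgdh, Psat1 and Psph in turn, and all 3 fell in dCD EpiSC. Psat1 was among the most abundant of the 40 genes and went from 465 and 546 in WT to 250 and 216 in dCD (-1.11 ± 0.13, adjusted p = 0.00315). Psph went from 91.8 and 112 to 55.8 and 47.9 (-0.96 ± 0.14, adjusted p = 0.00672). Phgdh, the first enzyme, differed less, from 313 and 353 to 210 and 191 (-0.73 ± 0.13, adjusted p = 0.0128). In EpiLC the log2 fold changes of these genes lay between -0.27 and -0.12.

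The mitochondrial one-carbon enzymes use the serine so made. Mthfd2 had the smallest adjusted p of the 40 genes in EpiSC, at 167 and 195 in WT EpiSC and 77.5 and 72.1 in dCD EpiSC (-1.26 ± 0.11, adjusted p = 0.000941), and its 4 EpiLC values lay between 146 and 158. Shmt2 went from 223 and 253 to 145 and 135 (-0.76 ± 0.10, adjusted p = 0.00432). Aldh1l2 was scarce, between 0.844 and 2.85 in all libraries, and did not pass in EpiSC (-0.58 ± 0.28, adjusted p = 0.242).

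Proline synthesis fell likewise. Aldh18a1, which takes its first step from glutamate, was at 85.0 and 99.4 in WT EpiSC and 49.4 and 43.6 in dCD EpiSC (-0.97 ± 0.13, adjusted p = 0.00417). Pycr1, which takes its last step, was at 29.5 and 38.9 in WT against 15.3 and 15.0 in dCD (-1.11 ± 0.15, adjusted p = 0.00406). Both genes were close to WT in EpiLC, with log2 fold changes of -0.19 and -0.02. Cth, which makes cysteine from cystathionine, was at 95.5 and 119 in WT EpiSC and 64.1 and 65.3 in dCD EpiSC (-0.71 ± 0.12, adjusted p = 0.00918). Asns, asparagine synthetase and a classical ATF4 target, was at 302 and 380 in WT EpiSC and 176 and 151 in dCD EpiSC (-1.05 ± 0.16, adjusted p = 0.00653). It went the other way in EpiLC, from 189 and 203 in WT to 295 and 245 in dCD, without overlap, but this did not pass (0.45 ± 0.16, adjusted p = 0.13).

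**Figure D2:**
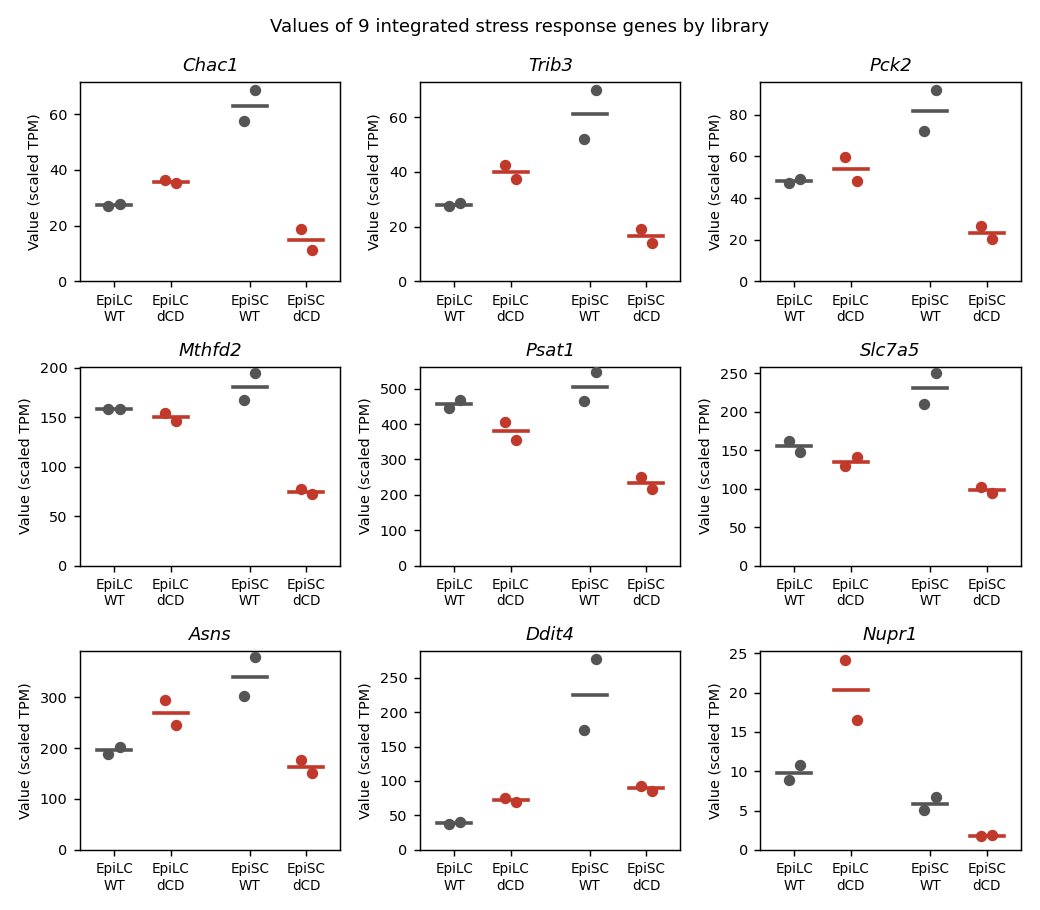
The points are single libraries and the lines are the means of the 2 libraries of a group, in TPM multiplied by a size factor, with WT in grey and dCD in red. In all 9 genes both dCD EpiSC points lie below both WT EpiSC points, while in EpiLC dCD lies above WT in Chac1, Trib3, Asns, Ddit4 and Nupr1, overlaps it in Pck2 and lies below it in Mthfd2, Psat1 and Slc7a5. The scaling of the values is comparable within a stage only.

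Amino acid transporters fell in dCD EpiSC in 5 of 6 cases, with a median log2 fold change of -1.16, the lowest of the 5 roles. Slc7a5 carries large neutral amino acids together with the heavy chain Slc3a2. It was at 210 and 251 in WT EpiSC and 102 and 93.9 in dCD EpiSC (-1.22 ± 0.12, adjusted p = 0.00159). Slc3a2 differed by less, from 321 and 359 to 229 and 226 (-0.58 ± 0.11, adjusted p = 0.0166). The light chain of the pair was therefore at 0.424 of its WT mean and the heavy chain at 0.669.

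Cationic amino acids enter through Slc7a1 and Slc7a3. Slc7a3 was the single gene of the 40 that fell at both stages, from 214 and 207 to 122 and 128 in EpiLC (-0.75 ± 0.11, adjusted p = 0.00944) and from 131 and 156 to 61.9 and 68.4 in EpiSC (-1.12 ± 0.11, adjusted p = 0.00181). Slc7a1 was at 32.4 and 35.5 in WT EpiSC and 14.5 and 14.0 in dCD EpiSC (-1.19 ± 0.24, adjusted p = 0.018), and in EpiLC its dCD values of 12.1 and 20.3 lay on either side of the WT values of 19.2 and 14.6. The glycine transporter Slc6a9 was low, at 12.9 and 17.1 in WT EpiSC and 6.66 and 4.35 in dCD EpiSC (-1.31 ± 0.24, adjusted p = 0.013). Slc7a11, which imports cystine and is also a target of NRF2, lay between 2.80 and 4.26 in all libraries and passed at neither stage (-0.17 ± 0.12 in EpiSC, adjusted p = 0.431).

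The tRNA synthetases load amino acids onto tRNAs. Of the 7 genes of this role, 6 fell in dCD EpiSC (median -0.73), and 0 passed in EpiLC (limma, median 0.08, with 1 higher and 1 lower at an unadjusted p below 0.05). Their log2 fold changes in EpiSC ran from -0.93 to -0.22. Cars, for cysteine, went from 140 and 157 to 81.9 and 73.6 (-0.93 ± 0.14, adjusted p = 0.00617). Yars, for tyrosine, went from 163 and 177 to 97.7 and 97.1 (-0.80 ± 0.10, adjusted p = 0.00386). In both genes the dCD EpiSC libraries lay well under either WT library. Sars, for serine, was at 336 and 390 in WT against 223 and 196 in dCD (-0.79 ± 0.11, adjusted p = 0.00596). Gars, for glycine, was at 436 and 481 in WT against 291 and 262 in dCD (-0.73 ± 0.12, adjusted p = 0.00962). Aars, for alanine, differed least of those that fell, from 164 and 173 to 125 and 119 (-0.46 ± 0.09, adjusted p = 0.0156). Wars, for tryptophan, did not pass, with 87.3 and 94.7 in WT against 76.7 and 78.9 in dCD (-0.22 ± 0.09, adjusted p = 0.16). Xpot, which exports tRNAs from the nucleus, fell from 111 and 114 to 76.0 and 71.6 (-0.60 ± 0.09, adjusted p = 0.00653).

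Feedback and output genes held both the largest falls and the only genes above WT in dCD EpiSC. Chac1, which degrades glutathione, was at 57.4 and 68.6 in WT EpiSC and 18.6 and 11.2 in dCD EpiSC (-2.04 ± 0.21, adjusted p = 0.002). Trib3, a pseudokinase that binds ATF4 and dampens it, was at 52.2 and 70.0 in WT against 19.0 and 14.0 in dCD (-1.83 ± 0.19, adjusted p = 0.00181). The WT means of these genes were 4.23 and 3.71 times the dCD means. In EpiLC both lay above WT without overlap, Chac1 at 27.1 and 27.6 against 36.3 and 35.3 in dCD and Trib3 at 27.4 and 28.7 against 42.7 and 37.5, and neither passed there (adjusted p = 0.351 and 0.156).

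Ddit4 encodes REDD1, an inhibitor of mTORC1, and changed in opposite directions at the 2 stages. In EpiLC it rose from 37.7 and 40.4 in WT to 75.8 and 70.1 in dCD (0.88 ± 0.20, adjusted p = 0.0387). In EpiSC it fell from 174 and 277 to 92.5 and 85.6 (-1.29 ± 0.20, adjusted p = 0.00789). The WT EpiSC libraries differed from each other more for Ddit4 than the dCD EpiSC libraries did, yet both lay above both dCD libraries.

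Eif4ebp1 and Sesn2 fell in dCD EpiSC as well. Eif4ebp1, the repressor of cap-dependent translation 4E-BP1, was at 311 and 353 in WT EpiSC and 197 and 167 in dCD EpiSC (-0.87 ± 0.22, adjusted p = 0.0427). Sesn2, a leucine sensor upstream of mTORC1, was at 72.6 and 78.9 in WT against 52.6 and 58.0 in dCD (-0.45 ± 0.10, adjusted p = 0.026). Both were among the weaker results. Stc2, a secreted glycoprotein, went from 21.5 and 24.6 to 12.9 and 11.0 (-0.90 ± 0.14, adjusted p = 0.00712). Herpud1, which takes part in the degradation of endoplasmic reticulum proteins, went from 33.8 and 35.8 to 20.9 and 19.5 (-0.76 ± 0.10, adjusted p = 0.00366) and was level in EpiLC, where its 4 values lay between 18.8 and 20.1.

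The genes of this role that did not pass in EpiSC were Gdf15, Ppp1r15a and Vldlr. Gdf15, a secreted stress cytokine, was close to the lower end of what was measured, at 1.14 and 0.797 in WT EpiSC and 0.213 and 0.125 in dCD EpiSC (-0.75 ± 0.24, adjusted p = 0.0855), and its EpiLC values were 1.06 and 1.54 in WT against 3.56 and 1.86 in dCD. Ppp1r15a encodes GADD34, the phosphatase subunit that removes the phosphate from eIF2. It was at 22.2 and 22.0 in WT EpiSC and 27.4 and 26.1 in dCD EpiSC (0.26 ± 0.17, adjusted p = 0.373), and in EpiLC at 18.2 and 20.1 in WT against 34.1 and 23.5 in dCD (0.54 ± 0.17, adjusted p = 0.0987). Vldlr, a lipoprotein receptor, was at 14.6 and 14.9 in WT EpiSC and 18.5 and 16.9 in dCD EpiSC (0.25 ± 0.20, adjusted p = 0.498). GADD34 mRNA was thus above WT in both dCD libraries at both stages, without passing at either.

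Whether the dCD effect differed between the stages was tested as the effect in EpiSC less the effect in EpiLC. This difference was below 0 for all 40 genes (38 where mitochondrially encoded genes were removed and the libraries rescaled, 39 without WT EpiLC replicate 1 and 38 without dCD EpiLC replicate 2), with a median of -0.85 against -0.037 over all genes tested, and 25 of the 40 passed (62.5%), all of them lower in EpiSC, where 10.4% of all genes passed, 6.72% in this direction and 3.66% in the other. It was largest for Chac1 (-2.42 ± 0.30, adjusted p = 0.00476), Trib3 (-2.33 ± 0.26, adjusted p = 0.00352), Nupr1 (-2.25 ± 0.30, adjusted p = 0.00642) and Ddit4 (-2.18 ± 0.29, adjusted p = 0.00605). By role, 3 of 6 transcription factors, 8 of 11 enzymes, 2 of 6 transporters, 5 of 7 synthetase and export genes and 7 of 10 feedback and output genes passed. Slc7a3, which fell at both stages, did not pass (-0.38 ± 0.16, adjusted p = 0.21). Atf3, Ddit4 and Nupr1 were the genes that rose in dCD EpiLC, fell in dCD EpiSC and passed the test of the difference. The count of 25 was 15 where mitochondrially encoded genes were removed and the libraries rescaled, where 6.49% of all genes passed. It also depended on single libraries, and the median lay between -0.97 and -0.77 with a single library left out.

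**Figure D3:**
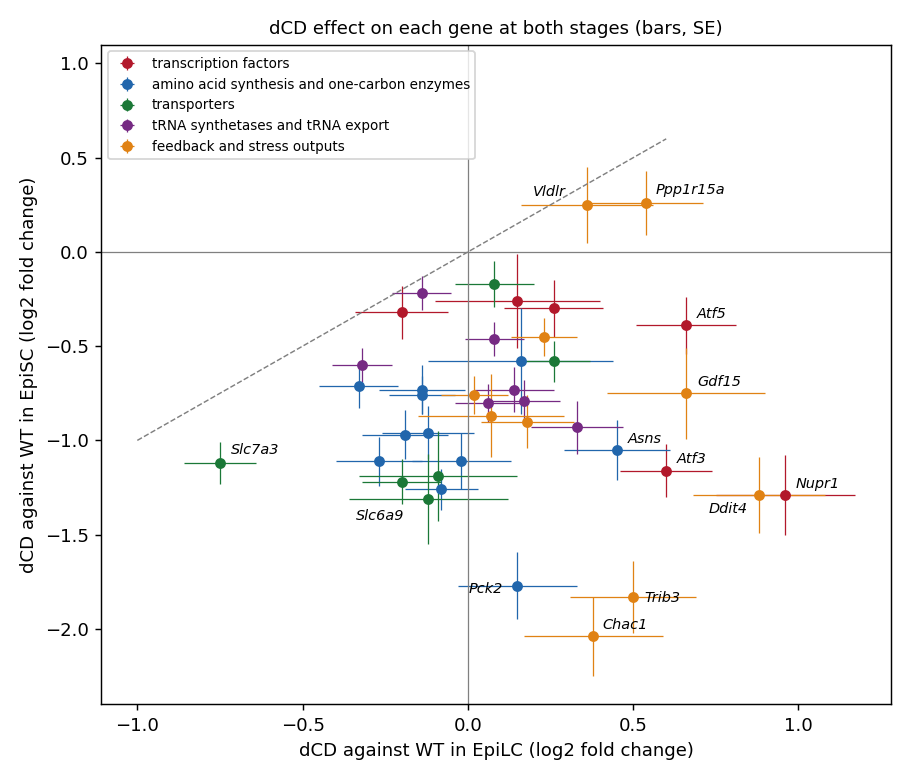
Each point is 1 gene, with its log2 fold change of dCD against WT in EpiLC on the horizontal axis and in EpiSC on the vertical axis, bars of 1 SE and colours by role. The dashed line marks equal effects at both stages, and all 40 points lie below it.

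Levels of a stage cannot be tested against the other, since the tables of the stages appear to be scaled apart, and they are given as a description. In WT the EpiSC mean lay above the EpiLC mean for 36 of the 40 genes (90.0%, against 64.1% of all genes tested). The median log2 difference was 0.50 against 0.16 over all genes tested. In dCD the EpiSC mean was the higher one for 12 of the 40 (30.0%, against 58.5%), with a median of -0.37 against 0.12. Chac1 averaged 2.31 times its WT EpiLC level in WT EpiSC and 0.417 times its dCD EpiLC level in dCD EpiSC. The corresponding ratios of Asns were 1.74 and 0.606.

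Of 16 genes for the eIF2 kinases, eIF2 and its exchange factor eIF2B, 0 rose and 1 fell in dCD EpiSC (median -0.07), and 1 rose and 0 fell in dCD EpiLC (median -0.06). The share that passed was 6.25% at either stage, against 14.5% of all genes in EpiSC and 10.1% in EpiLC. At an unadjusted p below 0.05 these limma counts were 1 and 3 in EpiSC and 2 and 2 in EpiLC. The gene that fell was Eif2s2, the beta subunit of eIF2, from 421 and 467 to 315 and 293 (-0.55 ± 0.12, adjusted p = 0.0287). The gene that rose in EpiLC was Eif2ak2, which encodes PKR, from 7.16 and 6.69 to 10.2 and 13.5 (0.69 ± 0.15, adjusted p = 0.0299). In EpiSC it was at 14.2 and 13.1 in WT against 19.4 and 21.0 in dCD, without passing (0.53 ± 0.15, adjusted p = 0.0545). The values of Eif2b5, a subunit of eIF2B, did not repeat between libraries, at 35.5 and 0 in dCD EpiLC, and this gene was singled out after its values were seen.

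Of 11 further genes known as ATF4 targets, 6 fell (54.5%) and 0 rose in dCD EpiSC (limma, median -0.52, with 7 lower and 0 higher at an unadjusted p below 0.05). Of all genes tested 6.91% fell and 7.57% rose there. Gpt2, the mitochondrial alanine aminotransferase, went from 45.7 and 59.5 to 19.3 and 12.3 (-1.70 ± 0.22, adjusted p = 0.00374). Jdp2, a bZIP factor, went from 11.4 and 13.4 to 4.62 and 4.88 (-1.22 ± 0.13, adjusted p = 0.00217). Both dCD libraries lay below both WT libraries for each of them. Slc1a5, the glutamine transporter, went from 56.9 and 70.0 to 36.8 and 34.0 (-0.82 ± 0.12, adjusted p = 0.00658), and Got1, a cytosolic aspartate aminotransferase, fell by 0.52 on the log2 scale. In EpiLC 3 of these 11 rose (27.3%, against 7.56% of all genes), namely Jdp2 (0.59 ± 0.13, adjusted p = 0.0353), Bbc3 (0.63 ± 0.13, adjusted p = 0.0272) and Sqstm1 (0.47 ± 0.10, adjusted p = 0.0335).

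The other arms of the unfolded protein response are run by ATF6 and by IRE1 through XBP1. Among their 16 tested genes 0 fell and 1 rose (6.25%) in dCD EpiSC (limma, 0 and 5 at an unadjusted p below 0.05). Of all genes tested 6.91% fell and 7.57% rose there, so these counts are near those shares. The median was 0.23, against -0.009 over all genes tested. The gene that rose was the ubiquitin ligase Syvn1, at 21.9 and 18.6 in WT EpiSC and 26.3 and 30.0 in dCD EpiSC (0.46 ± 0.12, adjusted p = 0.0467). In EpiLC 2 of the 16 rose (12.5%) and 0 fell, where 7.56% of all genes rose. Xbp1 went there from 26.3 and 27.2 to 42.4 and 37.1 (0.55 ± 0.10, adjusted p = 0.0185), and Edem1 also rose (0.50 ± 0.12, adjusted p = 0.0468).

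Of the 10 other cytosolic tRNA synthetases 0 passed at either stage (limma, median -0.18 in EpiSC, with 3 lower there and 0 in EpiLC at an unadjusted p below 0.05). Of all genes 14.5% passed in EpiSC and 10.1% in EpiLC. Of 15 mitochondrial synthetases tested 3 fell and 0 rose in EpiSC (median -0.24), where 6.91% of all genes fell. Among them were Rars2 and Ears2, with log2 fold changes of -0.46 and -0.43. Of 5 mitochondrial chaperones and proteases Hspd1, the HSP60 chaperonin, fell at both stages, from 928 and 843 to 443 and 465 in EpiLC (-0.96 ± 0.11, adjusted p = 0.00325) and from 972 and 914 to 534 and 526 in EpiSC (-0.83 ± 0.11, adjusted p = 0.00449). Among 11 targets of the oxidative stress factor NRF2, Gclm, Gsr and Hmox1 fell in EpiSC, by 0.64, 0.59 and 0.41 on the log2 scale (27.3%, against 6.91% of all genes). Srxn1 rose in EpiLC (0.92 ± 0.09, adjusted p = 0.00164), which is 9.09% of the list against 7.56% of all genes.

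**Figure D4:**
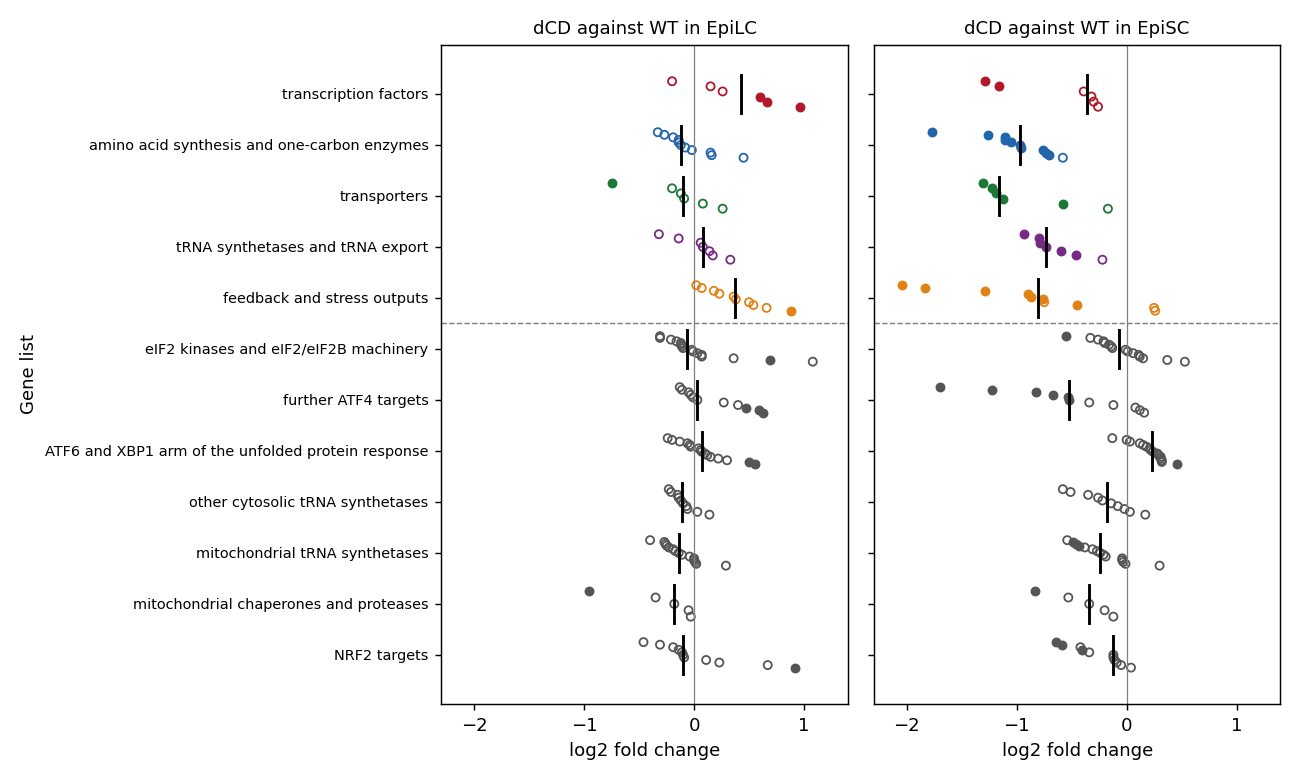
Each point is 1 gene, filled where its adjusted p was below 0.05, and the black bars are list medians. The lists above the dashed line are the 40 genes by role, with medians from -0.36 to -1.16 in EpiSC, and the lists under it are other genes of the pathway and of neighbouring stress responses, where the further ATF4 targets have the lowest EpiSC median (-0.52).

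Marker genes of other cell states also differed between the genotypes. In EpiSC the summed value of 5 EpiSC and primitive streak markers was 570 and 393 in WT against 983 and 914 in dCD, and 4 of the 5 rose (Eomes, Mixl1, Fgf8 and T). Of these T, also known as Brachyury, rose in EpiLC too, from 4.25 and 3.75 in WT to 17.8 and 18.2 in dCD. The summed value of 4 endoderm markers was 95.7 and 64.1 in WT EpiSC and 184 and 165 in dCD EpiSC, where Sox17 rose and Apoa1 fell. Sox17 made up most of this sum, at 92.8 and 62.5 in WT EpiSC and 183 and 163 in dCD EpiSC. Fibroblast and feeder markers, 7 genes, lay in sum between 20.4 and 29.0 in all EpiSC libraries, where 1 of 6 tested rose. Within this sum Col3a1 went from 7.23 and 9.46 in WT to 14.0 and 18.8 in dCD. Col1a1 went the other way, from 5.78 and 4.76 to 3.14 and 3.44. The sum of 4 neural markers, mostly Tubb3 at both stages, lay between 23.7 and 36.9 in EpiSC, where 1 of 3 tested rose (Pax6). Among 4 naive ESC markers Klf4 and Tbx3 rose and Zfp42 fell in dCD EpiSC, at summed values of 5.22 to 9.90 in all EpiSC libraries. In EpiLC the fibroblast and feeder markers were at 70.6 and 67.0 in WT against 13.3 and 14.4 in dCD, the naive ESC markers at 15.3 in both WT libraries and 38.2 and 37.3 in dCD, the neural markers at 42.2 and 45.2 in WT against 77.5 and 71.2 in dCD, where all 3 tested rose, and 4 markers of two-cell-like cells at 1.08 and 1.06 in WT against 34.9 and 31.5 in dCD. The part of these cell states in the differences of the stress response genes was not tested, and in bulk RNA fewer cells of a type and less RNA per cell cannot be told apart.

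For 13 of the 40 genes an exon overlaps an exon of another annotated gene, mostly on the opposite strand, among them Ddit3, Atf5, Pck2, Psph, Shmt2, Slc6a9 and Yars. The library kit keeps the strand. Whether the quantification used it is not given in the sources used here, so a share of their values may belong to the neighbour. On their own strand Aars overlaps Exosc6, Cebpg overlaps Gm44836 and Ddit3 overlaps another annotated gene of the same name, so the strand does not separate these. The Ddit3 values come from a single identifier, so a share of its signal may be listed under the other.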

How the data were processed

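PolyA RNA of 8 libraries was sequenced from a stranded TruSeq preparation. Per the labels and the methods of the study, the authors quantified transcripts with kallisto against a mouse Ensembl annotation (mm10) and summarised genes with sleuth; the sources used here give no tool versions. The deposited values are headed TPM, but their library sums differ and they behave as TPM multiplied by 1 factor per library within a stage, so they were treated as a normalized signal; the analysis had been planned for plain TPM and was kept. The authors' table of 2i ESC, with 6 columns of libraries that match no sample, was not used.

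Columns were matched to samples by title and genes to symbols by Ensembl identifier (GENCODE M21). A limma fit (3.58.1, R 4.3.3, eBayes with trend) of log2(value + 1) gave each of the 4 groups a mean, with genes kept where 2 or more of the 8 libraries listed them at 1 or above and Benjamini-Hochberg adjustment over all 12717 genes. A pseudocount of 1 understates the changes of low genes. The script was tested on simulated data. Genes past the threshold of 0.05 were named with all values, with Ddit3 in any case, and other pathway lists by their smallest p (at most 4 a stage). The members and the lists were chosen with earlier results of these data known. Alternatives were other pseudocounts, filters and scalings, each stage alone, a replicate block and leaving out libraries.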

Additional observations from a re-analysis of the deposited data

Results flagged for a closer look

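In 25 genes the effect of dCD in EpiSC differed from that in EpiLC by the test of the difference itself (limma, adjusted p below 0.05 over all genes tested), and in all 25 it was lower in EpiSC. The values below are the log2 fold change in EpiSC less that in EpiLC. Among the transcription factors they were -2.25 for Nupr1, -1.76 for Atf3 and -1.05 for Atf5. For the enzymes they were -1.92 for Pck2, -1.51 for Asns, -1.18 for Mthfd2, -1.09 for Pycr1, -0.85 for Psat1, -0.84 for Psph, -0.78 for Aldh18a1 and -0.62 for Shmt2. The transporters Slc7a5 and Slc3a2 had -1.03 and -0.83. The tRNA synthetases had -1.26 (Cars), -0.96 (Sars), -0.86 (Gars and Yars) and -0.54 (Aars). Feedback and output genes had -2.42 (Chac1), -2.33 (Trib3), -2.18 (Ddit4), -1.41 (Gdf15), -1.08 (Stc2), -0.78 (Herpud1) and -0.68 (Sesn2). The 25 genes share the same 8 libraries and moved together between replicates.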

How the results depend on the processing

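In EpiSC the 30 genes that fell were 26 to 33 under other pseudocounts, filters and scalings and with each stage fitted alone. The share of all genes that fell moved too, from 3.59% without a filter on low values to 16.8% with each stage alone. The median log2 fold change was -0.79 without WT EpiLC replicate 2 and dCD EpiLC replicate 1 together. It lay between -0.88 and -0.74 without single libraries. The count of EpiSC genes that rose went from 0 to 1 (Ppp1r15a) with each stage fitted alone and without those 2 EpiLC libraries together. In EpiLC the 4 genes that rose became 0 without a filter on low values, 1 after quantile normalization, 1 with mitochondrial genes removed, 1 with each stage fitted alone, 1 without those 2 EpiLC libraries together and 0 to 10 without single libraries. The 1 EpiLC gene that fell became 0 with each stage alone and 0 to 2 without single libraries. The EpiLC median of 0.11 became 0.04 after quantile normalization and 0.03 with mitochondrial genes removed and the libraries rescaled. Quantile normalization also moved all EpiLC calls from 961 higher and 327 lower to 768 and 538. For the stage difference the count of 25 became 15 with mitochondrial genes removed and 8 to 31 without single libraries. Calls that held in every setting above, with the replicate block described below and in every fit without a library numbered 9 of 30 in EpiSC (Atf3, Chac1, Mthfd2, Pck2, Psat1, Pycr1, Slc7a3, Slc7a5 and Trib3), 5 of 25 for the stage difference (Atf3, Chac1, Ddit4, Nupr1 and Trib3) and 0 of 5 in EpiLC. Leaving out 1 library leaves a group with a lone sample, which is assumed to vary like the others. Genes passing in neither fit were counted as the same whatever their sign. Read depth is not known, so its limits are not either.

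The replicate numbers share only a number. Between genotypes, the differences of replicate 2 from replicate 1 had a correlation of -0.583 in EpiLC and -0.00662 in EpiSC over 12717 genes. With the replicate block 11 genes were lower in EpiSC, where 1.94% of all genes fell. In EpiLC 0 were higher and 0 lower, and 5 passed for the stage difference (2.76% and 2.39% of all genes passed). A pairing with the dCD EpiLC numbers crossed, chosen after seeing the data, gave 32 lower in EpiSC (10.5% of all genes fell). It gave 6 higher and 2 lower in EpiLC (16.4% of all genes passed) and 29 for the stage difference (16.3%).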
